A study of Mus musculus with 4 samples.

Results

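The genotype difference after LPS was read from 2 of the 4 arrays in the series: LysM-St18flox cells and wild-type cells, each after 3 h with lipopolysaccharide (LPS), with 1 array each. The 2 arrays of the same genotypes at 0 h, without LPS, gave values set side by side and also entered the choice of each gene's probe. All cells came from mice given 4% thioglycollate, which irritates the abdominal cavity and recruits leukocytes, and were washed out 3 days later and kept in RPMI medium with 10% serum. The labels call them peritoneal macrophages, while the sample titles say PEC, the usual short form of peritoneal exudate cells, a mixture that macrophages dominate. LysM is the lysozyme promoter, which in mouse crosses of this kind drives recombination in macrophages, monocytes and neutrophils, and St18flox names an St18 allele flanked by recombination sites. The labels do not say whether wild-type mice carried either allele, and the LPS dose, the number of mice per array and their sex and age are not given in the sources used here. Signals are normalized log2 signals, on which 0 is the 75th percentile of an array, and every difference is LysM-St18flox minus wild-type. A gene was read from its brightest probe over the 4 arrays and was measured when that probe was well above background on both 3 h arrays, which held for 13049 of 22911 genes with a named probe. With 1 array per group no replicate check exists and no test was made, so each difference describes these 2 arrays.

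LPS is sensed by Toll-like receptor 4 on macrophages. Signalling through the adaptor MyD88 turns on NF-kB and inflammatory cytokine genes, and signalling through TRIF turns on interferon beta, which in turn induces interferon-stimulated genes. St18 belongs to the myelin transcription factor family of zinc finger proteins and is best known from neurons. An exudate 3 days after thioglycollate also holds lymphocytes, eosinophils, mast cells, neutrophils and some shed lining cells, so marker genes of those cells were read apart from macrophage genes.

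St18 itself had a normalized log2 signal of -4.82 in LysM-St18flox cells at 3 h, not well above background, against -1.66 in wild-type cells at 3 h. At 0 h the signals were -4.54 in LysM-St18flox cells, again not well above background, and -1.31 in wild-type cells. The 3 h values put St18 at least 8.48-fold below wild-type. The other St18 probe stayed at background throughout. The sources used here do not place the probes relative to the flanked part, so the bound may not check the deletion.

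Most genes lay close together on the 3 h arrays. Differences had a median of -0.01 and an SD of 0.41, with the 5th percentile at -0.51 and the 95th at 0.59. With a log2 difference of at least 1, which is 2-fold, 237 genes were higher (1.82% of those measured) and 183 were lower (1.4%), together 420 genes or 3.22%. Past 4-fold were 41 higher and 33 lower genes. The share past 2-fold was 7.2% among the dimmest 3263 genes and 0.92% among the brightest 3262. The 75th percentile signal was 882 on the LysM-St18flox array and 755 on the wild-type array, and the share of spots well above background was 52.2% to 55.6% on the 4 arrays, with no saturated spot. Among 286 probes printed 10 times, the median SD of the difference between spots at the same position of both arrays was 0.03, which covers spot error and not mice or cultures.

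Of the 420 genes past 2-fold, 54 belonged to the marker lists of cell types other than macrophages, 33 of them higher and 21 lower. Those lists supplied 106 of the measured genes. All lists were chosen with earlier results of these data known, so such counts are descriptive. The 3 macrophage lists had 61 measured genes with 9 higher and none lower, and the 20 pathway lists had 535 with 17 higher and 6 lower. Medians were 0.03 for the macrophage lists together and 0.01 for the pathway lists together. Each list count below stands beside shares of 1.82% higher and 1.4% lower over all measured genes. In RNA of mixed cells, fewer cells of a type and less RNA per cell cannot be told apart.

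B cell genes lay higher in LysM-St18flox cells for 13 of 14 measured markers. Of the 14, 11 were at least 2-fold higher and none was at least 2-fold lower, with a median of 2.38. Ms4a1, which encodes a B cell surface protein, had signals of 1.95 in LysM-St18flox cells and -1.18 in wild-type cells, a difference of 3.12. Cd79b, a subunit of the B cell receptor, had 2.60 in LysM-St18flox cells and 0.32 in wild-type cells. Fcmr, the receptor for IgM, had 1.56 in LysM-St18flox cells and -1.18 in wild-type cells. All 3 genes were thus several-fold brighter in LysM-St18flox cells. Ebf1, a factor that specifies B cells, was at background in wild-type cells at 3 h and at least 5.85-fold above that in LysM-St18flox cells, with a second probe bounded in the same direction. Within 2-fold were Pax5 (-0.56), Cd22 (0.18, second probe 0.50) and Cr2 (0.55), chosen after their values were seen. Pax5, at -4.01 in LysM-St18flox cells and -3.46 in wild-type cells, was the 1 measured marker below 0. The summed signal of the list, in units of the array's 75th percentile, was 28.4 in LysM-St18flox cells and 6.24 in wild-type cells. The list median at 0 h was 2.35, close to that at 3 h.

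Genes of T and NK cells showed a smaller difference. Of 22 measured markers, 10 were at least 2-fold higher and none lower, and the median was 0.67. Cd3d, a chain of the T cell receptor complex, had -0.39 in LysM-St18flox cells and -1.76 in wild-type cells (1.37, second probe 1.78). Lck, the kinase that starts T cell receptor signalling, had 1.12 in LysM-St18flox cells and -0.20 in wild-type cells. Icos, a costimulatory receptor, had -1.92 in LysM-St18flox cells and -3.80 in wild-type cells. Cd3e (-0.10), Cd247 (-0.60, second probe 0.69) and Cd4 (0.10), chosen after their values were seen, lay within 2-fold. The remaining members ranged down to -0.89, so the list did not move together. In all, 18 of the 22 were above 0 and 4 were below. The summed signal was 55.1 in LysM-St18flox cells and 48.4 in wild-type cells. A stricter filter on dim probes, among the settings tried, took the median as low as 0.35.

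All 6 measured erythroid genes were at least 2-fold higher, with a median of 3.28. Hba-a1, an alpha globin gene, had 5.41 in LysM-St18flox cells and 2.16 in wild-type cells (3.25, second probe 3.20). Hbb-bt, a beta globin gene, had 3.29 in LysM-St18flox cells and -0.56 in wild-type cells. Gata1, a transcription factor of erythroid, mast cell and eosinophil lineages, had 0.68 in LysM-St18flox cells and -0.51 in wild-type cells, a smaller difference of 1.19. The globin genes are near-identical copies, so their probes may share transcripts. The summed signal of the list was 98.0 in LysM-St18flox cells and 10.4 in wild-type cells.

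Mast cell proteases and the measured eosinophil genes were also higher. The chymase gene Cma1 had 1.50 in LysM-St18flox cells and -0.82 in wild-type cells, and Cpa3, the mast cell carboxypeptidase gene, had 0.74 in LysM-St18flox cells and -1.30 in wild-type cells. Mcpt4 (1.53) and Tpsb2 (1.50), both protease genes, made 4 of 6 measured mast cell markers past 2-fold. Kit, the stem cell factor receptor gene, differed by -0.07, and Hdc, the histamine-forming enzyme gene, by -0.38. Fcer1a, the IgE receptor alpha chain gene, was at least 2.08-fold higher and the mast cell receptor gene Mrgprb2 at least 3.93-fold lower, both bounds from 1 probe and both genes chosen after their values were seen. Of 7 measured eosinophil genes all were above 0, with a median of 0.77, and 1 was past 2-fold: Il5ra, the interleukin 5 receptor alpha chain gene, had 0.03 in LysM-St18flox cells and -1.45 in wild-type cells (second probe 2.13). Siglecf, the eosinophil lectin gene, differed by 0.88 and the eotaxin receptor gene Ccr3 by 0.81. Prg2 and Epx, listed eosinophil genes chosen after their values were seen, were not well above background on either 3 h array.

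**Figure D1:**
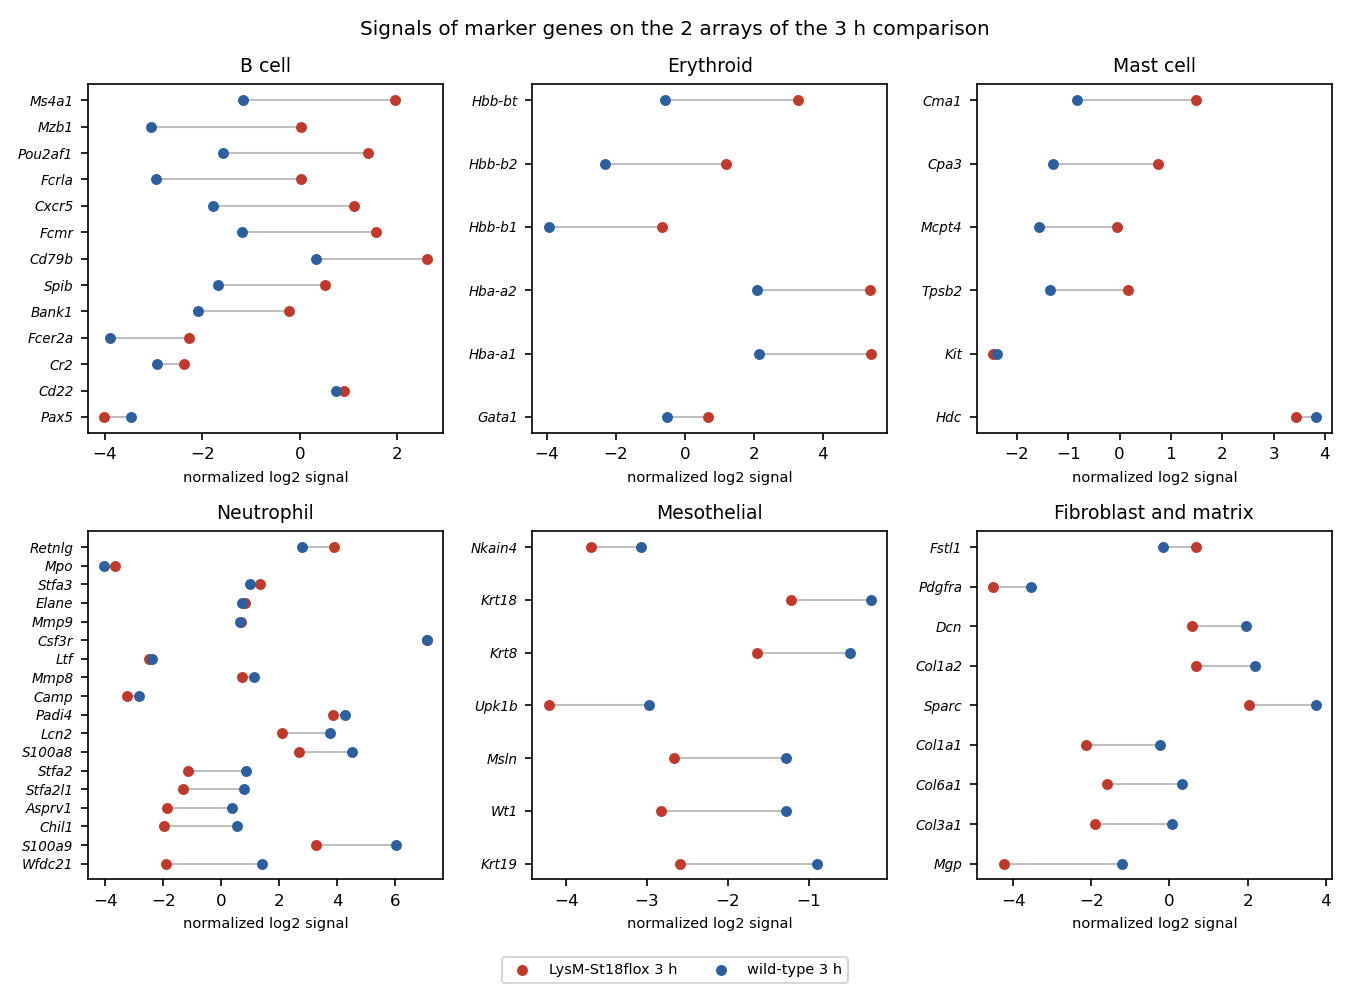
Normalized log2 signal (horizontal axis) of measured markers of 6 cell types on the 3 h arrays, with LysM-St18flox in red and wild-type in blue, 1 array each and a line joining the pair. B cell and erythroid markers lie mostly to the right in LysM-St18flox cells, mesothelial and fibroblast markers mostly to the left, and neutrophil markers divide into 8 that are at least 2-fold lower, 1 that is higher, Retnlg, and 9 that differ by less than 2-fold.

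Neutrophil genes divided into separate groups. Of 18 measured, 8 were at least 2-fold lower and 1 was higher, with a median of -0.43. S100a9, a subunit of calprotectin, had 3.28 in LysM-St18flox cells and 6.02 in wild-type cells, and its partner S100a8 had 2.67 in LysM-St18flox cells and 4.51 in wild-type cells. Lcn2, which encodes the iron-scavenging lipocalin of neutrophil granules, had 2.09 in LysM-St18flox cells and 3.76 in wild-type cells (-1.67, second probe -1.91). These 3 genes and Wfdc21 (-3.32), Chil1 (-2.53), Asprv1 (-2.22), Stfa2l1 (-2.07) and Stfa2 made up the lower group, in which the stefin genes are near-identical copies. The other 10 members ranged from -0.43 to 1.11, and the highest, Retnlg, was chosen after its value was seen. Ngp and Cxcr2, defining markers also chosen after their values were seen, were not well above background on either 3 h array. Summed signals were 195 in LysM-St18flox cells and 280 in wild-type cells. LPS induces several of the lower genes in macrophages too, and the part of neutrophils in these values was not tested.

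Genes of the abdominal lining and of matrix-forming cells were lower. Of 7 measured mesothelial markers, 5 were at least 2-fold lower and none was above 0, with a median of -1.25. The 5 other listed mesothelial genes with a probe were not well above background on either 3 h array. Msln, which encodes mesothelin, had -2.67 in LysM-St18flox cells and -1.28 in wild-type cells, and Krt19, a keratin gene, had -2.60 in LysM-St18flox cells and -0.89 in wild-type cells. Of 9 measured fibroblast and matrix genes, 7 were at least 2-fold lower, with a median of -1.71. The list also had members above 0: Fstl1, a follistatin-like gene chosen after its value was seen, differed by 0.86 (second probe 0.74), and Postn, the periostin gene, had 9.51 in LysM-St18flox cells and was not well above background in wild-type cells, which gave a bound of 13.92. Lum and Loxl1, also chosen after their values were seen, were bounded on the lower side, at -2.48 and -2.61. Sparc, which encodes a collagen-binding matrix protein, had 2.03 in LysM-St18flox cells and 3.74 in wild-type cells (-1.71, second probe -1.81). Col1a1, a collagen chain gene, had -2.14 in LysM-St18flox cells and -0.25 in wild-type cells (-1.89, second probe -1.76). Both genes were more than 3-fold dimmer in LysM-St18flox cells by each probe. Sparc had differed by only -0.34 at 0 h, against -1.26 for Col1a1. Summed signals were 9.68 in LysM-St18flox cells and 26.3 in wild-type cells for the matrix list, and 1.34 in LysM-St18flox cells and 3.18 in wild-type cells for the mesothelial list. Dendritic cell markers had no member past 2-fold among 11 (median 0.21), endothelial markers none among 4 (median 0.40, below 0 under 3 other settings), and 1 of 2 measured platelet genes, Ppbp, was lower (-1.24).

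**Figure D2:**
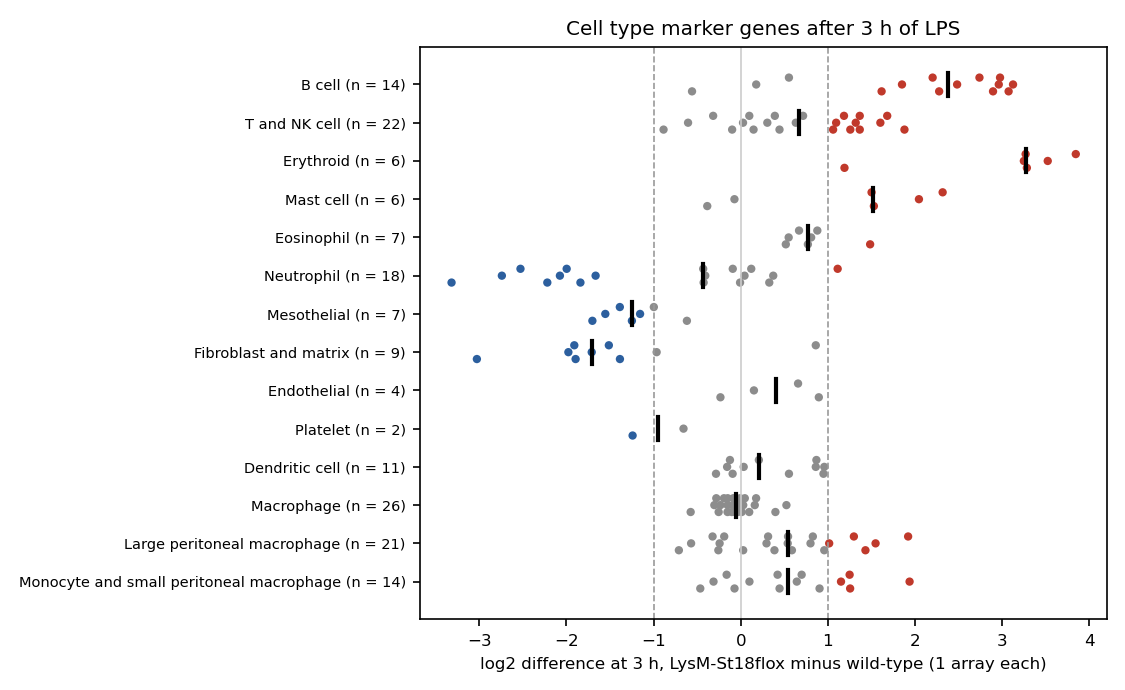
Log2 difference at 3 h, LysM-St18flox minus wild-type (horizontal axis, 1 array each), of every measured marker gene by list, with the median as a bar, dashed lines at 2-fold, and genes past 2-fold in red (higher) or blue (lower). B cell (median 2.38) and erythroid (3.28) lists lie furthest to the right, the fibroblast and matrix list (-1.71) furthest to the left, and the macrophage list is packed around -0.06.

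Pan-macrophage genes hardly differed at 3 h. Of 26 measured markers none was past 2-fold, and they ranged from -0.57 for Cx3cr1, the fractalkine receptor gene, to 0.52 for Mertk, a receptor kinase for apoptotic cells. Their SD was 0.22, against 0.41 over all genes and 0.28 over the brightest 3262, and their median was -0.06, with a range over all settings of -0.09 to 0.00. Cd14, the LPS coreceptor gene, had 7.09 in LysM-St18flox cells and 7.34 in wild-type cells. Lyz2, the lysozyme gene whose promoter LysM is, had 6.07 in LysM-St18flox cells and 6.30 in wild-type cells. At 0 h Lyz2 differed by 1.20, while the list median there was -0.20. Fcer1g, the shared Fc receptor chain gene, had 7.37 in LysM-St18flox cells and 7.67 in wild-type cells. The 3 genes were bright on both arrays. The summed signal was 2340 in LysM-St18flox cells and 2479 in wild-type cells.

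Genes of particular peritoneal macrophage states differed more. Large peritoneal macrophages are the resident cells, and 5 of their 21 measured markers were at least 2-fold higher and none lower, with a median of 0.54. Tgfb2, a transforming growth factor gene, had -0.11 in LysM-St18flox cells and -1.66 in wild-type cells (1.55, second probe 1.78). Prg4, which encodes lubricin, had 1.60 in LysM-St18flox cells and 0.17 in wild-type cells, and Alox15, the lipoxygenase gene of resident macrophages and eosinophils, had -0.80 in LysM-St18flox cells and -2.10 in wild-type cells. Cxcl13, a B cell chemoattractant gene, had -1.17 in LysM-St18flox cells and -3.09 in wild-type cells, and Ltbp1 differed by 1.01. Members ranged down to -0.71 for Cd5l, chosen after its value was seen, and 15 of 21 were above 0. The defining markers Gata6 (0.59), Timd4 (0.39) and Icam2 (0.30), chosen after their values were seen, lay within 2-fold. The summed signal went the other way from the median, with 326 in LysM-St18flox cells and 370 in wild-type cells. The median was 0.63 at 0 h.

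Markers of monocytes and of the small peritoneal macrophages that derive from them had 4 of 14 members higher, none lower, and a median of 0.54. Retnla, a gene of alternative activation, had 5.38 in LysM-St18flox cells and 3.44 in wild-type cells, a difference of 1.94. Plac8 had 3.52 in LysM-St18flox cells and 2.26 in wild-type cells, and Ly6c2, which marks inflammatory monocytes, had 2.79 in LysM-St18flox cells and 1.54 in wild-type cells. Ly6c1, its near-identical neighbour, had a difference of 1.15 by the brightest probe and -0.17 by another. Retnla and Plac8 were higher at 0 h as well (1.80 and 1.36), while Ly6c2 differed there by 0.19.

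A second probe served to separate values shared by 2 probes from those resting on 1 probe. Both probes read the same RNA on the same arrays. Their agreement thus checks the probe and not mice, cultures or the cell mixture. Of 4550 genes with a second measured probe, 61 were past 2-fold by the brightest probe, and 31 of them (0.681% of the 4550) had a further probe beyond that threshold on the same side, with none opposed. The 31 were 20 higher and 11 lower genes, and they made up 50.8% of the 61. In 11 of the 61 a further probe lay on the other side of 0. Of the 31, 7 were in the lists of other cell types, among them Hba-a1, Cd3d, Il5ra, Lcn2, Sparc and Col1a1, which left 24 genes, 16 higher and 8 lower. Hba-a1, Sparc, Anp32a, Gdf3 and Tppp3 were among the 6 that kept 2 such probes under all 6 settings in which this could be computed.

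Anp32a, Gdf3 and Tppp3 were all lower, and none is in a list of other cell types. Anp32a, which encodes an acidic nuclear protein that binds histones, had 1.71 in LysM-St18flox cells and 3.61 in wild-type cells at 3 h, a difference of -1.91, and its further probe gave -1.45. At 0 h it had 2.98 in LysM-St18flox cells and 3.62 in wild-type cells (-0.64), so the LysM-St18flox 3 h array was the lowest of the 4. Gdf3, a growth factor gene of the TGF-beta family that macrophages express, had 3.05 in LysM-St18flox cells and 4.31 in wild-type cells at 3 h (-1.27, further probe -1.19). Its 0 h difference was -1.41. Tppp3, which encodes a protein that promotes tubulin polymerization, had 3.87 in LysM-St18flox cells and 5.03 in wild-type cells at 3 h (-1.16, further probe -1.32). Its 0 h difference was -1.05, so Gdf3 and Tppp3 were lower with and without LPS.

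Other genes lower by 2 probes included immune receptors and matrix genes. Trem1, a receptor that amplifies Toll-like receptor signalling in neutrophils and monocytes, had 1.102 in LysM-St18flox cells and 2.39 in wild-type cells (-1.29, further probe -1.97). At 0 h it differed by -1.58. Icosl, which encodes the ligand of Icos on antigen-presenting cells, had -1.49 in LysM-St18flox cells and -0.17 in wild-type cells (-1.32, further probe -2.48), while at 0 h it differed by 0.07 from signals of -3.78 in LysM-St18flox cells and -3.85 in wild-type cells. Icosl was the only one of the 10 lower genes measured at 0 h that lay on the other side of 0 there. Fbn1 (-1.28), which encodes the microfibril protein fibrillin-1, and Timp3 (-1.21), a metalloproteinase inhibitor gene, were also lower. Both are known from matrix-forming cells, whose listed genes were mostly lower on the same array. The part of those cells in these values was not tested. Atp2b4, a plasma membrane calcium pump gene, differed by -1.09 from dim signals of -2.86 in LysM-St18flox cells and -1.76 in wild-type cells.

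**Figure D3:**
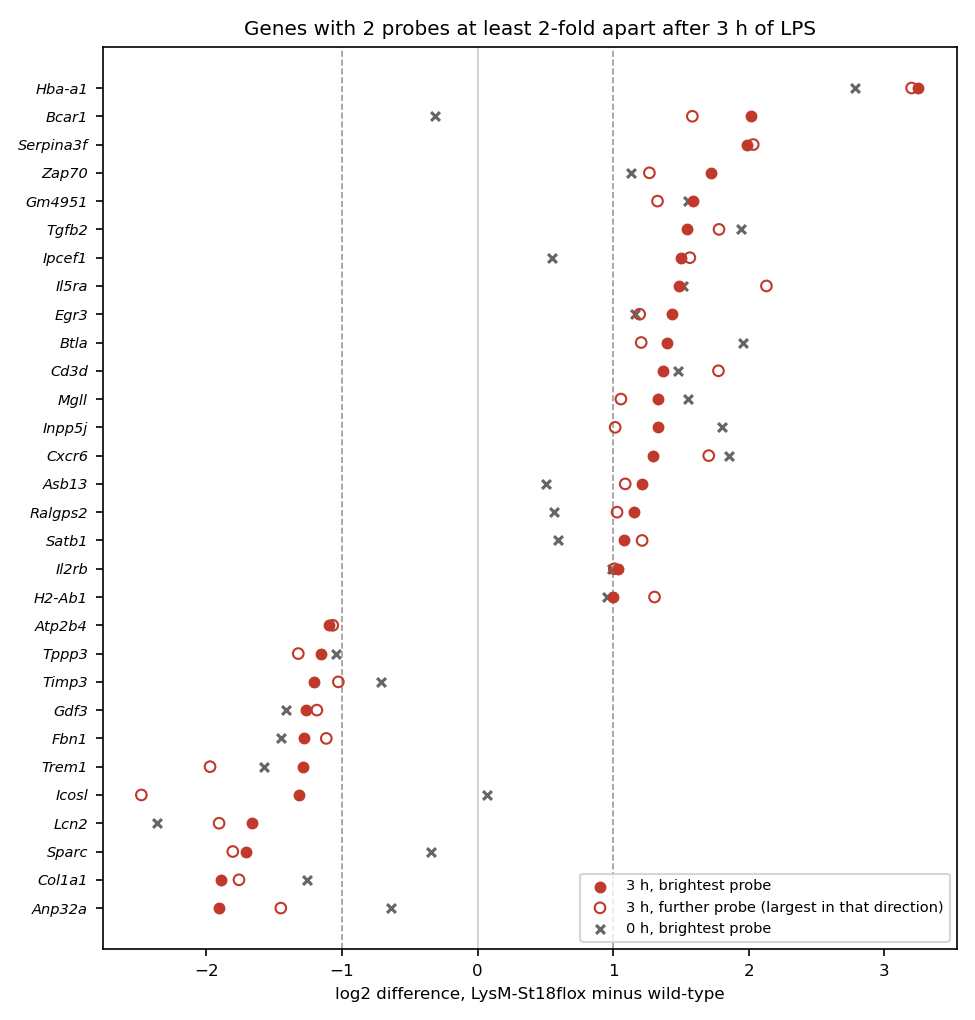
Log2 difference, LysM-St18flox minus wild-type (horizontal axis, 1 array each), of 30 of the 31 genes with 2 probes past 2-fold at 3 h. Filled circles show the brightest probe at 3 h, open circles the further probe at 3 h and crosses the brightest probe at 0 h, and the dashed lines mark 2-fold. Most crosses lie on the side of their circles, while those of Bcar1 and Icosl lie across 0.

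Among the genes higher by 2 probes, Bcar1 and Serpina3f lay outside all lists with the largest values. Bcar1, which encodes an adaptor of integrin signalling, had -1.49 in LysM-St18flox cells and -3.51 in wild-type cells (2.02, further probe 1.58). At 0 h it differed by -0.32, and it was the only one of the 19 higher genes measured at 0 h on the other side of 0 there. Serpina3f, an interferon-inducible serine protease inhibitor gene of a family of close copies, had 0.51 in LysM-St18flox cells and -1.48 in wild-type cells (1.98, further probe 2.03). It was not well above background at 0 h in either genotype. Neither Bcar1 nor Serpina3f kept 2 such probes under the stricter filter or in the deposited table. Bcar1 did not keep them with normexp correction either. Gm4951, a predicted gene chosen after its value was seen, differed by 1.59.

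Zap70 (1.72), the kinase that binds the activated T cell receptor, Btla (1.40), a coinhibitory receptor of B and T cells, Cxcr6 (1.29), a chemokine receptor of T and NK cells, Satb1 (1.08), a chromatin organizer of thymocytes, and Il2rb (1.03), a subunit of the interleukin 2 receptor, were higher by 2 probes. They were in no list, and they are best known from lymphocytes, whose listed markers were higher on the same array. How much of their difference came from lymphocytes was not tested. Egr3, an immediate early factor gene, had -0.25 in LysM-St18flox cells and -1.68 in wild-type cells (1.43, further probe 1.19), and at 0 h differed by 1.16. Mgll (1.33), the monoacylglycerol lipase gene, Inpp5j (1.33), an inositol phosphatase gene, Ipcef1 (1.50), Asb13 (1.21) and Ralgps2 (1.15) completed the higher group with Tgfb2 and H2-Ab1.

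The MHC class II genes, whose products present peptides to helper T cells, were higher as a group. Of 13 measured members, 6 were at least 2-fold higher and none lower, against 1.82% higher among all genes, and the median was 0.91, with its lowest value over the settings at 0.86. H2-Ab1, a beta chain gene, had 7.56 in LysM-St18flox cells and 6.55 in wild-type cells, and its 3 other probes gave differences of 0.85 to 1.30. H2-Aa, the partner chain gene, had 5.12 in LysM-St18flox cells and 3.79 in wild-type cells, and H2-DMb1, part of the peptide editor, had 4.42 in LysM-St18flox cells and 3.38 in wild-type cells. H2-Oa, an inhibitor of that editor found mainly in B cells, differed by 1.27, and H2-Ob, its partner, by 1.46 with a second probe at -1.04. The list median at 0 h was 0.99. B cells and dendritic cells carry class II too. The B cell summed signal was 28.4 in LysM-St18flox cells and 6.24 in wild-type cells, and its part in the class II values was not tested. MHC class I and immunoproteasome genes had none of 18 past 2-fold and a median of 0.20.

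At the median, canonical cytokine genes of the LPS response were close between genotypes. Of 32 measured LPS-induced cytokine and chemokine genes, none was at least 2-fold higher and 3 were lower, with a median of 0.03. Tnf, the tumour necrosis factor gene, had 6.67 in LysM-St18flox cells and 6.90 in wild-type cells. Il6 had 5.20 in LysM-St18flox cells and 5.02 in wild-type cells, and Il1b had 7.96 in LysM-St18flox cells and 7.94 in wild-type cells. The largest of these 3 differences was -0.23. Il10, the anti-inflammatory cytokine gene, had 2.91 in LysM-St18flox cells and 2.87 in wild-type cells. Il12b, a subunit of interleukins 12 and 23, had 0.87 in LysM-St18flox cells and 1.39 in wild-type cells. Osm, also in the list, differed by 0.83 by its brightest probe and by 1.71 by a second probe. The 3 lower genes act on neutrophils: Cxcl5, a chemokine gene, had -2.35 in LysM-St18flox cells and -0.81 in wild-type cells (-1.54), Cxcl3, another, had 4.70 in LysM-St18flox cells and 5.75 in wild-type cells (-1.06), and Csf3, the granulocyte colony-stimulating factor gene, had -3.01 in LysM-St18flox cells and -1.91 in wild-type cells (-1.10). Each of the 3 rests on 1 measured probe, and stromal and mesothelial cells, whose markers were lower on the same array, can make Cxcl5 and Csf3. Their part was not tested.

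Enzymes and surface molecules induced by LPS had 1 gene higher and 1 lower among 29, beside 3.22% of all measured genes past 2-fold. Nos2, the inducible nitric oxide synthase gene, had 3.19 in LysM-St18flox cells and 2.61 in wild-type cells (0.57), and Ptgs2, the inducible cyclooxygenase gene, differed by 0.13. Cd69, an activation marker of lymphocytes and macrophages, had 3.38 in LysM-St18flox cells and 2.25 in wild-type cells (1.13). Fpr1, the formyl peptide receptor gene of neutrophils and macrophages, had 3.02 in LysM-St18flox cells and 4.07 in wild-type cells (-1.04). The feedback inhibitor list of that receptor family had none of 25 past 2-fold, from -0.79 for Irak3, which blocks the receptor's kinase complex, to 0.53 for Rgs1. Among 31 NF-kB and AP-1 factors, Egr3 (1.43) and Egr1 (1.07) were higher, and Jun (0.69) and Egr2 (0.67) lay above 0. The inflammasome and cell death list had none of 29 past 2-fold.

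Irf8, a transcription factor gene of macrophages, dendritic cells and B cells, was the only member of the Toll-like receptor pathway list of 32 measured genes past 2-fold. It had 4.41 in LysM-St18flox cells and 3.23 in wild-type cells at 3 h (1.18), while its 0 h difference was -0.47. The list median was -0.07, and Ikbke, which encodes a kinase upstream of interferon genes, had the lowest value (-0.67). Among all measured genes 3.22% were past 2-fold. Ifnb1, the interferon beta gene, had 2.52 in LysM-St18flox cells and 1.82 in wild-type cells at 3 h (0.70, 1 probe).

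Interferon-stimulated genes were shifted upward together by a small amount. Of 47 measured members, 44 were above 0, 3 were at least 2-fold higher and none was lower, with a median of 0.38, against a median of -0.01 over all genes. The median was 0.35 to 0.40 over the settings and 0.39 at 0 h. Iigp1, an interferon-inducible GTPase gene, had 2.60 in LysM-St18flox cells and 0.94 in wild-type cells (1.66). Cxcl9, a chemokine gene for activated T cells, had 1.48 in LysM-St18flox cells and 0.06 in wild-type cells (1.42). Ifit2, an antiviral gene, had 4.63 in LysM-St18flox cells and 3.41 in wild-type cells (1.22). Each was more than 2-fold brighter in LysM-St18flox cells by a single probe. Ifit3 (0.97) and Isg20 (0.87, second probe 1.02) came next.

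Promoters of this list often hold binding letters of interferon-activated factors. Of 37 list genes with an entry in the RefSeq promoter table (build GRCm38.p6, 250 bases before to 50 after the start, first listed start of each gene), 25 held the core of the interferon-stimulated response element, GAAA followed by 2 bases of any kind and GAAA, on either strand, against 3.49% of 27025 promoters in all. The gamma-activated site, TTCNNNGAA, was in 10 of the 37 and in 8.47% of all promoters. Of 21 promoters of the cytokine list, 0 held either motif, which says only that these letters are not in these windows. The motifs may overlap each other, and a match is a description of the letters, not a measured site. Ifit3 and Gbp7 (0.79), a guanylate-binding protein gene chosen after its value was seen, are shown as list members with the response element core, without and with the gamma-activated site, and Serpina3f is shown because its mean over 2 probes was the highest outside all lists. Not every gene with a large difference held that core: the promoters of Cxcl9, Ifit2 and Isg20 had 0 matches of it at every listed start, and that of Cxcl9 had 0 of the gamma-activated site too. Capitals mark the motif matches in the promoters of Ifit3 (chr19:34583279-34583578, plus strand, 2 matches of the response element core), Gbp7 (chr3:142530086-142530385, plus strand, 1 match of that core and 2 of the gamma-activated site) and Serpina3f (chr12:104214294-104214593, plus strand, 1 match of the gamma-activated site).
Ifit3: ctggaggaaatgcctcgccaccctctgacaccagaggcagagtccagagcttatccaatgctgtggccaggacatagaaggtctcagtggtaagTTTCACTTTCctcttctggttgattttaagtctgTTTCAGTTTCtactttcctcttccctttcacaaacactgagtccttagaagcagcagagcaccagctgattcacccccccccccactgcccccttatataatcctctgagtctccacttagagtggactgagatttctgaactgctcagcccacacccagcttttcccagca
Gbp7: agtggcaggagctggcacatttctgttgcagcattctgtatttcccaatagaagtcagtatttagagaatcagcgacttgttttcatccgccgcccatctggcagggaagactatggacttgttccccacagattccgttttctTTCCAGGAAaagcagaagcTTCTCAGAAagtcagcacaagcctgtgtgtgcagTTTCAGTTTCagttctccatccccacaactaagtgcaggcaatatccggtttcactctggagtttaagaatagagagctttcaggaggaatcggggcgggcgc
Serpina3f: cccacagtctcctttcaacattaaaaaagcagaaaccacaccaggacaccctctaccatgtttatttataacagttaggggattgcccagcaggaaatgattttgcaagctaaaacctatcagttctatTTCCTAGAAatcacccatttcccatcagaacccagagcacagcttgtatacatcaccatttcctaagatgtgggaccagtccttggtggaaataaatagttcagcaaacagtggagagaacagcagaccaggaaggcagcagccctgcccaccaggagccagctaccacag

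**Figure D4:**
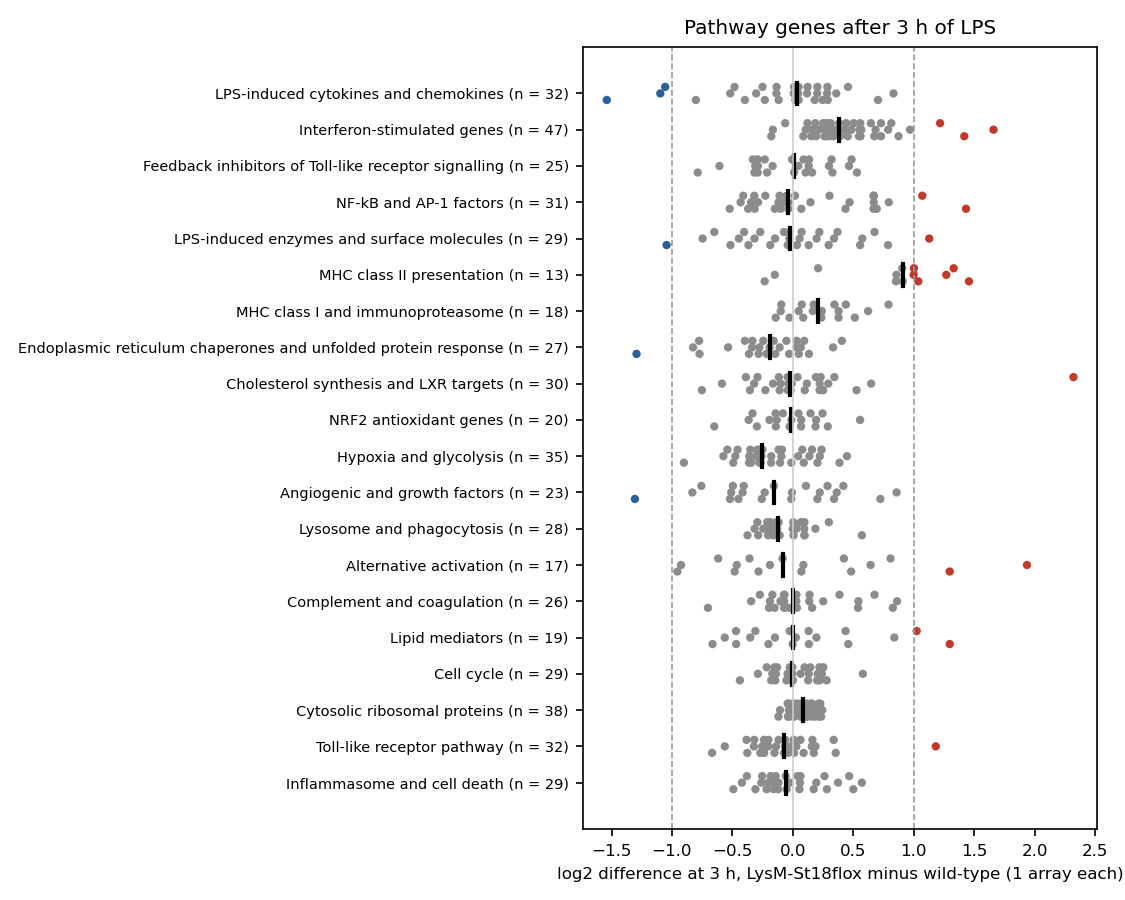
Log2 difference at 3 h, LysM-St18flox minus wild-type (horizontal axis, 1 array each), of every measured gene of 20 pathway lists, with n genes per list, the median as a bar and dashed lines at 2-fold. Genes at least 2-fold higher are red and those at least 2-fold lower blue. Interferon-stimulated genes (median 0.38) and MHC class II genes (0.91) lie to the right, and the other medians are between -0.25 and 0.20.

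Metabolic and housekeeping lists differed little, and over all measured genes only 3.22% were past 2-fold. Hypoxia and glycolysis genes had none of 35 past 2-fold, yet 25 were below 0, with a median of -0.25 and a range over the settings of -0.26 to -0.16. Pfkl, the liver-type phosphofructokinase gene, had 0.31 in LysM-St18flox cells and 1.22 in wild-type cells (-0.90), and Slc16a3, the lactate exporter gene, had 4.09 in LysM-St18flox cells and 4.67 in wild-type cells (-0.57). Genes of endoplasmic reticulum chaperones and the unfolded protein response had 19 of 27 below 0 and a median of -0.19, with 1 gene past 2-fold, the disulfide isomerase gene Pdia4 (0.35 in LysM-St18flox cells and 1.64 in wild-type cells). Scd1, the stearoyl-CoA desaturase gene, was the only member past 2-fold among 30 cholesterol synthesis and LXR target genes, with -1.24 in LysM-St18flox cells and -3.56 in wild-type cells (2.32), and its 0 h difference was 2.56. Ribosomal protein genes had none of 38 past 2-fold and lay between -0.12 and 0.24. NRF2 (20 genes), lysosome (28), complement (26) and cell cycle (29) lists had none past 2-fold either.

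A few growth factor and lipid mediator genes were past 2-fold, beside 3.22% of all measured genes. Vegfc, a lymphatic growth factor gene, had -3.28 in LysM-St18flox cells and -1.97 in wild-type cells (-1.31) and was the only one past 2-fold of 23 angiogenic and growth factor genes. Vegfa had -0.24 in LysM-St18flox cells and -0.23 in wild-type cells by the probe brightest over the 4 arrays, a difference of -0.01. Another probe, brighter at 3 h, had 0.64 in LysM-St18flox cells and 0.52 in wild-type cells, and over all 3 probes but the first the differences were -0.07 to 0.93. Hbegf, an EGF receptor ligand gene, lay at 0.86. Among 19 lipid mediator genes, Alox15 (1.30) and Ephx1 (1.02), the microsomal epoxide hydrolase gene, were higher, and Ltc4s, the leukotriene C4 synthase gene, lay at -0.66. Of 17 alternative activation genes, Retnla and Alox15 were higher, while Arg1, the arginase gene, had 4.76 in LysM-St18flox cells and 5.72 in wild-type cells (-0.96) and the chemokine gene Ccl24 lay at -0.93. The list thus had members on both sides of 0, with a median of -0.09.

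Values that rest on 1 probe were more numerous and include the most extreme ones. Of the 420 genes past 2-fold, 359 had 1 measured probe. Ribc1, a gene of ciliary microtubules, had -0.05 in LysM-St18flox cells and -3.94 in wild-type cells (3.89), and Col11a2, a cartilage collagen gene, had 0.26 in LysM-St18flox cells and -3.41 in wild-type cells (3.67). At 0 h these genes differed by -0.12 and -0.91. Ifnlr1, the interferon lambda receptor gene, had -4.67 in LysM-St18flox cells and -1.01 in wild-type cells (-3.66), against -1.14 at 0 h. Eef1aknmt, a methyltransferase gene, was at -2.99 and Samd3 at -2.88. These genes are dim on 1 side, where the share past 2-fold was highest.

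Genes well above background on only 1 of the 3 h arrays gave bounds of at least 2-fold for 201 higher and 263 lower genes. A second probe pointed the same way, by a bound or past 2-fold, for 2 of the higher ones, Ebf1 and Fam169b (1.13), and 3 of the lower ones, Ccdc141 (-3.79), Skint4 (-3.64) and Sytl4 (-1.72). Among bounds without a second probe were Trpv1 (4.11), a heat-gated channel gene, and Il1rl2 (3.57), a gene of the interleukin 1 receptor family, on the higher side. On the lower side were Slc30a3 (-4.78), a zinc transporter gene, Scgb1b19 (-4.73) and Pramel51 (-4.23). The bound of 13.92 for Postn, a member of the fibroblast and matrix list, came from 1 of 3 probes, and it stands far outside every other value.

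The 0 h arrays show how much of the 3 h difference was present without LPS. The 3 h and the 0 h comparison have no array in common. Over the 12344 genes measured at both times in both genotypes, their differences had a Pearson correlation of 0.416 and a Spearman correlation of 0.369, as a description over genes, which are not independent replicates and share the arrays' cell mixtures. Of 190 genes at least 2-fold higher at 3 h, 159 were above 0 at 0 h and 103 (54.2%) were at least 2-fold higher there, against 2.99% of all these genes. Of 126 genes at least 2-fold lower at 3 h, 109 were below 0 at 0 h and 56 (44.4%) were at least 2-fold lower there, against 2.88% of all. Past 2-fold in the opposite direction at 0 h were 5 of the 190 and 4 of the 126. Of the 29 genes with 2 probes past 2-fold at 3 h that were measured at 0 h, 27 lay on the same side of 0 and 18 were past 2-fold in the same direction, 12 of 19 higher and 6 of 10 lower ones. Bcar1 and Icosl were the 2 exceptions.

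**Figure D5:**
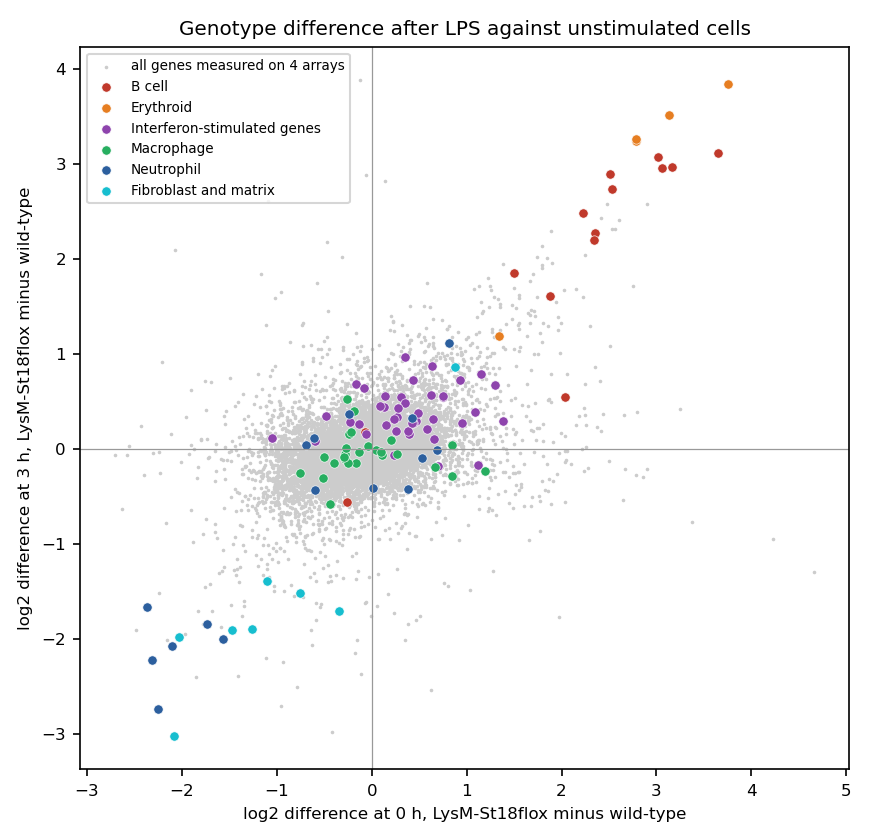
Log2 genotype difference at 3 h (vertical axis) against that at 0 h (horizontal axis), LysM-St18flox minus wild-type, for 12344 genes measured on all 4 arrays, with 6 lists in colour. Most B cell and erythroid genes sit at the upper right, and a group of neutrophil and matrix genes at the lower left. On the vertical axis, macrophage genes lie around 0 and most interferon-stimulated genes between 0 and 1. Macrophage genes spread wider on the horizontal axis, from -0.75 to 1.20.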

How the data were processed

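Per the submitters' processing notes and the file headers, the deposited spot intensity values came from Agilent 1-colour arrays read with Feature Extraction 11.0.1.1, after labelling 100 ng of total RNA with Cy3. They are background-subtracted and not normalized between arrays. Control and outlier-flagged spots were left out, repeat spots of a probe were averaged as log2 values, and the 75th percentile of the array was then taken off. A gene was its brightest probe over the 4 arrays, named through RefSeq accessions (32994 of 56605 probes). A bound is the bright side's value minus that of the dim side, or minus the lowest value well above background on the dim array if that is higher. The deposited value table of log2 values, whose columns are equal once sorted (largest gap 0.000362, median 9.58), served as an alternative for 25482 probes. No source used here states its normalization.

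With 1 array per group there was no test. The genes named in the text followed a fixed rule: 11 genes always, genes outside the lists of other cell types with 2 agreeing probes, up to 8 members of a marker list and 5 of a pathway list with the largest differences, and the largest 1-probe values, bounds and differences between times. Exceptions are marked. Some genes under that rule were left out of the text. The comparison, its 34 gene lists and that rule were chosen with earlier results of these data known. All 4 arrays lay on 1 slide. Alternatives were normexp correction (limma 3.58.1, offset 50), median centring, quantile normalization, no background filter, a stricter filter (both signals at least -2), the mean of all probes and the deposited table. The scripts were tested on simulated data.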

Additional observations from a re-analysis of the deposited data

Results flagged for a closer look

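The genotype difference of Pdia4, an endoplasmic reticulum disulfide isomerase gene, had opposite signs at the 2 times. It was -1.29 at 3 h and 4.66 at 0 h. The wild-type 0 h signal of -3.98 was far below the other 3 arrays. Ccdc141 had a bound of -3.79 at 3 h, where the gene was well above background only in wild-type cells, and a bound of 3.08 at 0 h, where it was well above background only in LysM-St18flox cells. With 1 array per group, neither difference between the times was tested.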

How the results depend on the processing

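The counts depended on how dim probes were treated. Against 237 higher and 183 lower genes, normexp correction gave 136 and 96, no background filter 992 and 1039 and a stricter filter 113 and 50, and the deposited table gave 119 lower genes. Genes with 2 probes past 2-fold numbered 20 higher and 11 lower. They were 6 higher with normexp, 54 higher and 49 lower without a filter, 4 higher and 5 lower with the stricter filter, and 11 higher and 7 lower in the deposited table. Outside the lists of other cell types, 24 such genes became 7 with normexp, 94 without a filter, 5 with the stricter filter and 13 in the deposited table. Of the 31 genes themselves, 14 remained with normexp, 9 with the stricter filter and 18 in the deposited table. The St18 bound was -1.74 with normexp, against -3.08. Median centring and quantile normalization left all these counts within 1.5 times.

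Of 105 named genes past 2-fold, all kept their direction under every alternative that measured them, and 84 stayed past 2-fold with normexp. Most of these genes were named for large differences, and every alternative reprocessed the same arrays, so a change of sign was unlikely beforehand. The neutrophil list median ranged from -1.67 to -0.40. The median of all genes ranged from -0.12 to -0.00. The mean of probes gives no 2-probe counts, and the stricter filter, the mean and the deposited table gave no St18 value. Leaving out a replicate was not possible with 1 array per group. No paired analysis was possible because each group has 1 array and the labels carry no replicate numbers. Precision is limited by this number of arrays and, for dim probes, by their closeness to background.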

Other observations

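The genotype difference at 3 h minus that at 0 h was also computed. With 2 probes past 2-fold in 1 direction, this signed value was above 0 for 7 genes and below 0 for 11, among 4217 genes with 2 or more probes on all 4 arrays. Clec2d, the gene of a lectin-like ligand of NK cell receptors, had 3.50 in LysM-St18flox cells and 2.45 in wild-type cells at 3 h (1.05), and 1.35 in LysM-St18flox cells and 1.80 in wild-type cells at 0 h (-0.45). Anp32a had -1.91 at 3 h and -0.64 at 0 h, and both probes put the change between times near -1.26. Most of the others differed mainly at 0 h. Skor1 was at 0.35 at 3 h and 2.18 at 0 h, Stk25 at -0.18 at 3 h and 1.49 at 0 h, and Neat1, a nuclear long noncoding RNA, at -0.12 at 3 h and 1.27 at 0 h. For Skor1 and Stk25 the wild-type 0 h signal was the lowest of the 4 arrays.

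Of the 61 genes past 2-fold for which another probe could be read, 3 had it past 2-fold in the opposite direction. They were H2-Ob (1.46 and -1.04), Tert (1.05 and -1.71) and Ikzf3 (2.41 and -1.17), the last 2 chosen after their values were seen.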
